A study of Mus musculus with 10 samples.

Results

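The genes described here mark T and B lymphocytes: Cd3e, Cd3g, Cd8a, Cd79a, Cd79b, Ms4a1, Foxp3, Gata3 and Il7r. They were chosen by name, as the non-control probes that the array annotates with one of these symbols, and make up 9 of the 34797 gene names on the array. They are measured by 11 probes on 20 spots. RNA came from the epididymal white adipose tissue (eWAT) of 10 adult male C57BL/6JOlaHsd wildtype mice, whose strain is labelled C57BL/6J. From an age of 9 weeks the mice ate a purified low fat diet for 3 weeks and then a BIOCLAIMS high-fat diet for 12 weeks, all at 29°C. They then received desferrioxamine (DFO), an iron chelator, at 100 mg/kg body weight daily for 5 days, and food was removed for 2 hours before dissection. Each mouse was hybridised in Cy5 on 1 array against a Cy3 pool of all samples of the wider study, control mice and these mice included. Untreated mice were not analysed here as a group, so no effect of DFO or diet can be read from any value, and all comparisons are between mice.

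T cells recognise antigen through a receptor that signals through the CD3 chains, and B cells through an antibody-like receptor that signals through the CD79 chains. In white fat both cell types lie among adipocytes and macrophages and in small lymphoid clusters, and the epididymal depot of obese mice is a known site of lymphocyte accumulation. In RNA of whole tissue, fewer cells of a type and less RNA per cell cannot be told apart.

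For 2 of the genes the probe sequence shows that the value is read at the end of the transcript. The Cd3e and the brighter Cd79a probe end at a polyadenylation signal, written here in capitals, and only the last 30 bases of each are shown, 5′ to 3′. The motif AATAAA was searched on the probe's own strand and occurs in 2 of the 11 probes and in 10.1% of all 55681 probes.
Cd3e, mm9 chr9:44806828-44806887, minus strand: taatgcaaaaggcAATAAAgtgtattggct
Cd79a, mm9 chr7:25686823-25686882, plus strand: gtgatAATAAAtccttcccaaagcaaaaaa
The second Cd79a probe is shown whole because its values part from those of the first. Its 60 bases span 258 bases of the genome, so that it crosses an intron.
Cd79a second probe, mm9 chr7:25684357-25684614, plus strand: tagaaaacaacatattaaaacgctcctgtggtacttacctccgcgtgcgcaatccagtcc
The probes of Cd3e and Cd3g lie on the same strand of chromosome 9, where both genes lie close together.

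Before the genes are described, the arrays need a word. The first principal component of the 25049 expressed probes held 76.2% of their variance and set mice 4, 5, 6 and 7 apart from the other 6. A probe is called expressed where the scanner software marked it well above background in both dyes on at least 5 of the 10 arrays. It also had to keep a value on all 10 arrays once outlier spots were left out. These 4 mice are no group of the study, and were picked out after the data were seen, so they are neither averaged nor tested against the others. Per array, the median Cy5 signal was 54.8 to 81.3 and its median local background 32 to 37. A test of the 5 slides, each with 2 arrays, found 0 of 25049 probes that differed (limma F test, Benjamini-Hochberg adjusted), while 1010 had an unadjusted p under 0.05. Mice 3 and 4 shared a slide, as did mice 7 and 8, so the first component also varied within slides. With 2 arrays per slide the test could miss a slide effect.

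Of the 9 genes, 7 were expressed, namely Cd3e, Cd3g, Cd79a, Cd79b, Ms4a1, Gata3 and Il7r, while Cd8a and Foxp3 were not. Cd8a, the chain of the coreceptor on cytotoxic T cells, was not well above background on any array in either dye with either of its 2 probes. Its brighter probe has 10 spots on each array, of which 9 of 100 over all arrays were marked well above background in Cy5 and 2 in Cy3. Its Cy5 signal lay between 42.9 and 61.6. Foxp3, the transcription factor that defines regulatory T cells, was well above background on 5 arrays in Cy5, those of mice 2, 3, 4, 9 and 10, and on 0 in Cy3. Its Cy5 signal of 54.3 to 86.5 came close to background, so no order of the mice is read from it. Ms4a1 was detected on 9 arrays in Cy5, and mouse 4 was the exception.

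**Figure D1:**
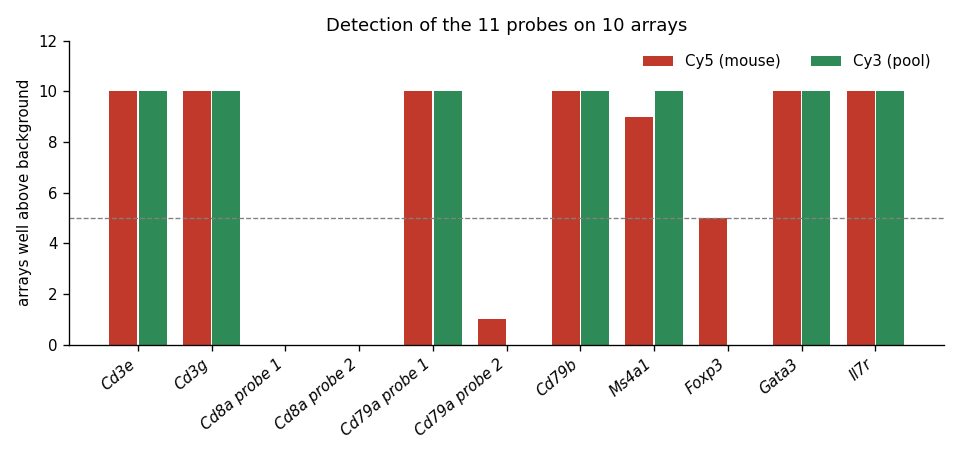
Number of arrays, of 10, on which each of the 11 probes was marked well above background in Cy5 (red, the mouse) and in Cy3 (green, the pool); the dashed line is the minimum of 5. Both Cd8a probes stand at 0 and Foxp3 reaches 5 in Cy5 alone.

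Among the T cell receptor chains, Cd3e, which carries signalling motifs of the receptor, varied little in most mice. Its log2 ratio, the log2 of the mouse over the pool, ran from -0.12 in mouse 8 through a median of 0.10 to 0.79 in mouse 3. Mouse 3 stood alone, since the next mouse reached 0.36, and mice 4 to 7 lay among the others. The Cy5 signal itself was not high in mouse 3, at 597 within a range of 542 to 991 over the 10 mice, and that array had the lowest median Cy5 signal, at 54.8. Mouse 3 was also the highest with the scanner software's ratio, at 0.77 on the log2 scale, with mouse 10 next at 0.39. In the deposited values it was the highest at 10.25, with mouse 10 next at 9.90. The place of mouse 3 still depended on the normalization within arrays. With median centring in place of loess, mouse 7 was the highest at 0.91, mouse 3 lay at 0.57 within 0.45 to 0.91, and the range over mice fell from 0.91 to 0.46. Cd3g, another CD3 chain, ran from -0.62 in mouse 5 through a median of 0.02 to 0.60 in mouse 9. All of mice 4 to 7 lay at -0.62 to -0.32, below the other 6, which lay at -0.01 to 0.60. Its highest and lowest mice differed by 1.22 on the log2 scale, or 2.33-fold, a range that was 2.60 on the log2 scale with the scanner software's ratio and 1.82 with the deposited values.

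Cd79a and Cd79b form the signalling pair of the B cell receptor. Cd79a ran from -0.72 in mouse 7 through a median of -0.24 to 0.23 in mouse 8, with mice 4 to 7 below the other 6 and mouse 4, at -0.71, close to mouse 7. Cd79b ran from -0.75 in mouse 4 through -0.14 to 0.56 in mouse 2, and mice 9 and 10, at -0.16 and -0.65, lay among mice 4 to 7. Ms4a1, which encodes the surface protein CD20 of B cells, ran from -0.93 in mouse 4 through -0.46 to 0.41 in mouse 8. Mice 2 and 8 were the highest, and mouse 10 again overlapped mice 4 to 7. The second Cd79a probe, the intron-crossing one above, was well above background on 1 array, that of mouse 10. Over the 10 mice its log2 ratio had an r of -0.21 with the first probe, given as a description.

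Gata3, a transcription factor of T helper 2 cells and innate lymphoid cells, ran from -0.62 in mouse 7 through -0.07 to 0.13 in mouse 10. Mice 2, 4, 5 and 7 lay at -0.41 or lower, while mouse 6 lay at -0.06 among the other mice.

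Il7r, the interleukin 7 receptor chain that sustains naive and memory lymphocytes, was the only one of the 7 expressed genes with mice 4 to 7 above the other 6. Its Cy5 signal was 3036 to 5314 in mice 4 to 7 and 434 to 1485 in the other 6, while the pool's Cy3 signal stayed at 974 to 1378 on all arrays. The log2 ratio was 0.95 in mouse 4, 1.10 in mouse 5, 1.05 in mouse 6 and 1.01 in mouse 7. It was -0.32 in mouse 2, -0.81 in mouse 3, -1.11 in mouse 8 and -1.33 in mouse 1. Mice 10 and 9 were the lowest, at -2.03 and -2.17. The highest and lowest mice differed 9.67-fold, and no value of mice 4 to 7 overlapped the rest.

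**Figure D2:**
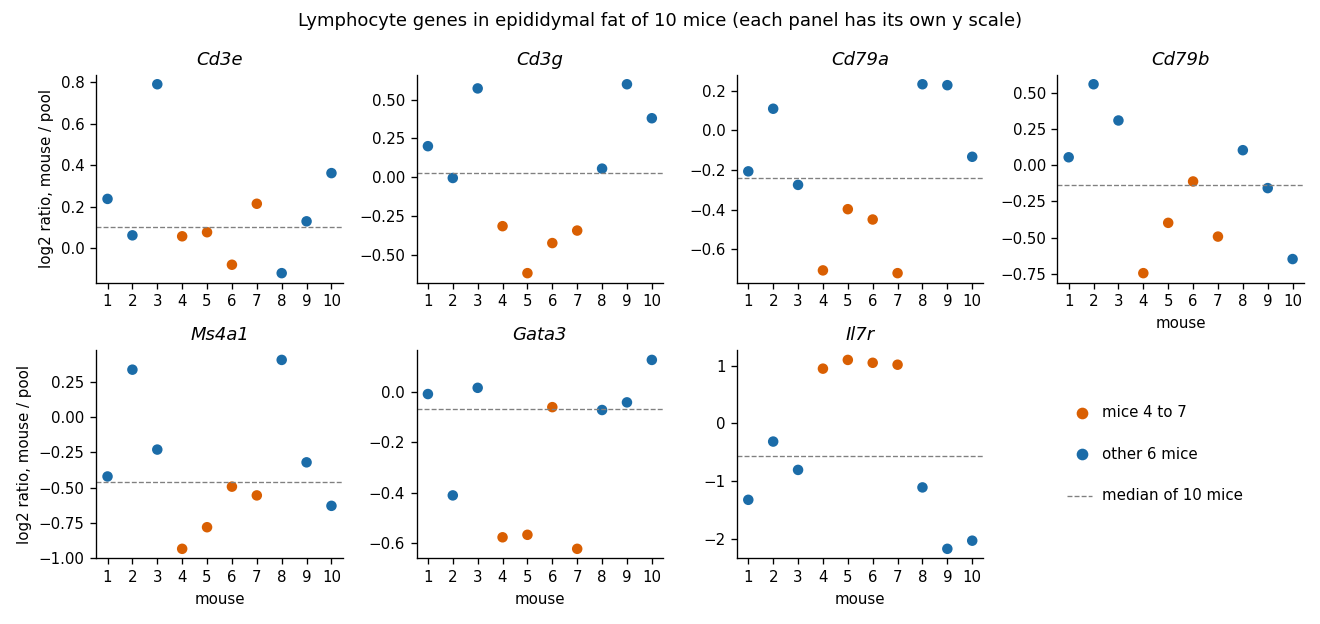
Log2 ratio of each mouse to the pool for the 7 expressed genes, 1 point per mouse, with mice 4 to 7 in orange, the other 6 in blue and the median of 10 mice dashed; the y scale differs between panels. Il7r is high in mice 4 to 7, at 0.95 to 1.10, where Cd3g and Cd79a are at their lowest, and mouse 3 stands above the rest for Cd3e, which it did not with median centring.

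Of all expressed probes, 23.2% had mice 4 to 7 all below the other 6 and 19.2% had them all above. Against that background, Cd3g and Cd79a, 2 of the 7 genes, lay below, and Il7r, 1 of 7, lay above. Those shares are of the order of the background and are not a result about lymphocyte genes.

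The spread between mice was set against the array-to-array error, which the Cy3 pool measures because the same pool was on every array. Error in preparing the RNA of each mouse enters Cy5 alone. A larger spread in Cy5 therefore cannot tell that error from differences between mice. The log2 Cy5 signal varied more than Cy3 for 59.8% of the expressed probes (adjusted Pitman-Morgan test), and for all 7 genes. The SD of the log2 ratio had a median of 0.42 over the 7 genes, against 0.18 over all expressed probes. Il7r had the widest excess, with a log2 Cy5 over Cy3 SD of 4.41 (adjusted p = 1.232e-07, Pitman-Morgan), followed by Cd79b at 2.85 (adjusted p = 1.49e-05, Pitman-Morgan). Ms4a1 and Cd3g gave 2.23 and 2.14. Cd79a, at 1.20 (adjusted p = 0.0207, Pitman-Morgan), and Cd3e, at 1.47 (adjusted p = 0.01197, Pitman-Morgan), were the weakest of the 7. Without mouse 3 Cd3e missed the threshold (adjusted p = 0.1653, Pitman-Morgan), as it did with median centring, where its log2 SD ratio fell from 1.47 to 0.32 (adjusted p = 0.5412, Pitman-Morgan). With the slide as a block it missed the threshold at a ratio of 1.86 (adjusted p = 0.05857, Pitman-Morgan). Cd79a missed it without mouse 8 (adjusted p = 0.07038, Pitman-Morgan). Without mice 4 to 7 the count fell to 4 genes, Cd3g, Cd79b, Ms4a1 and Il7r. Without normalization between arrays it fell to 3, with Cd3e, Cd79a, Cd79b and Gata3 lost. Over all 25049 expressed probes the count fell from 14970 to 3555 without those mice and to 4684 without that normalization.

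**Figure D3:**
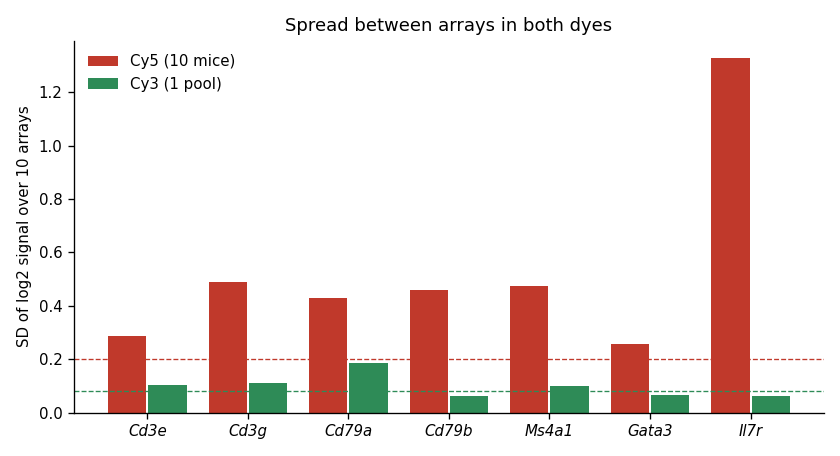
SD of the log2 signal over the 10 arrays for the 7 expressed genes, in Cy5 (red, 10 mice) and in Cy3 (green, 1 pool); dashed lines are the medians over all expressed probes, 0.199 for Cy5 and 0.0812 for Cy3. Every gene has the taller bar in Cy5, and Il7r the tallest.

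Pairs of genes were then compared over mice, 7 pairs of the 10 planned, with permutation p-values adjusted over the 7. Where a gene parted mice 4 to 7 from the rest, the pair was taken over the other 6 mice. Of the 3 pairs not tested, 1 held Cd8a and 1 Foxp3. The third was Gata3 with Il7r, since Gata3 fell into clusters of its own and its 6 upper mice shared 5 with those of Il7r, under the minimum of 6. Cd79b and Ms4a1 rose and fell together over the 10 mice (Pearson r = 0.827, permutation p = 0.00299, adjusted p = 0.02093; Spearman rho = 0.891, permutation p = 0.00126, adjusted p = 0.00882). Slides hold 2 arrays each, too few for an r within them, but the mouse of a slide with more Cd79b also had more Ms4a1 on 5 of 5 slides. In smaller sets of mice the relation missed the threshold, where fewer mice and the loss of the extreme ones cannot be told apart. Without the 2 farthest from the median of Cd79b, r was 0.655 (adjusted permutation p = 0.4464). Without mice 4 to 7 it was 0.719 over 6 mice (adjusted exact permutation p = 0.5007). Spearman rho missed the threshold in both cases too, at 0.833 (adjusted permutation p = 0.1076) and 0.771 (adjusted permutation p = 0.5201). Pearson r also missed it without mouse 2 (r = 0.742, adjusted permutation p = 0.09898) or mouse 4 (r = 0.778, adjusted permutation p = 0.09134). Spearman rho still passed without mouse 2 (rho = 0.883, adjusted permutation p = 0.02153) or mouse 4 (rho = 0.85, adjusted permutation p = 0.04252).

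No other pair passed the threshold. Cd3e and Cd3g gave r = 0.666 over 6 mice (exact permutation p = 0.1431, adjusted p = 0.4567), and Cd79a and Cd79b r = 0.0875 (exact permutation p = 0.8569). For Cd3g and Cd79b r was -0.405, and for Cd3g and Il7r -0.575 (exact permutation p = 0.2389), within the same 6 mice. Neither Cd3e with Ccl19, a chemokine that draws T cells into lymphoid tissue, nor Cd79b with Cxcl13, which draws B cells, passed over 10 mice, at r = 0.281 and r = 0.4003.

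**Figure D4:**
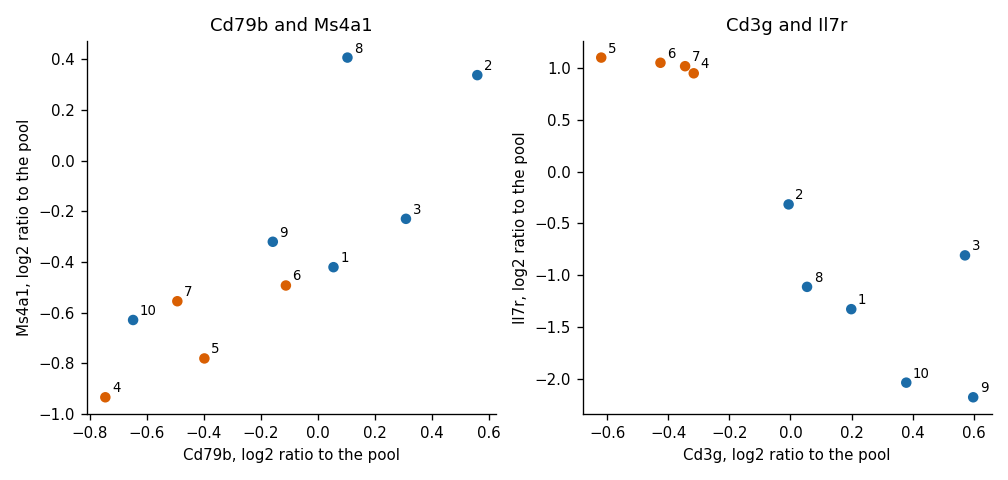
Log2 ratio to the pool of Ms4a1 against Cd79b (left) and of Il7r against Cd3g (right), 1 numbered point per mouse, with mice 4 to 7 in orange. The left panel runs upward over all 10 mice (r = 0.827); in the right panel mice 4 to 7 form a cluster of their own, so no r over 10 mice is given.

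The genes whose log2 ratio followed each gene most closely over the 10 mice, among 13794 annotated expressed genes, are given as a description and carry no p. Those of Il7r were Rgs1 (r = 0.999), a regulator of G protein signalling, Atp6v0d2 (r = 0.998), a subunit of the vacuolar proton pump, and Adam8 (r = 0.997), a membrane protease. All 3 had mice 4 to 7 above the other 6. Those of Ms4a1 were Faim3 (r = 0.977), an IgM receptor of B cells, Bmf and Ttll5. For Cd79b they were Taf9 (r = 0.977), Lipf and Jagn1, and for Cd79a Mtor (r = 0.962), Hif3a and Fam149b. For Cd3g they were Ephb3 (r = 0.983), Fam54a and Itsn1. For Cd3e they were Pebp1 (r = 0.981), Anapc2 and Zfp628, and all 3 were highest in mouse 3. For Gata3 they were Crybg3 (r = 0.959), Fat4 and Chst7.

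Other genes of the 2 lineages were counted from lists of known lineage genes. Each count stands against the shares over all expressed probes, 59.8% with more variation in Cy5, 23.2% with mice 4 to 7 below and 19.2% with them above. Of 20 T cell receptor signalling genes, 16 were expressed, and 13 varied more in Cy5 than in Cy3, with a median SD of the log2 ratio of 0.35. Mice 4 to 7 lay below the other 6 for 9 of the 16, among them Cd3d, a CD3 chain that ran from -0.75 to 0.78, the kinase Lck, from -0.71 to 0.75, and the adhesion receptor Cd2, from -1.005 to 0.41. They lay above for Lat and for Ptprc, the pan-leukocyte phosphatase CD45, which ran from -0.86 to 0.79. Cd4 had no detectable excess in Cy5 (adjusted p = 0.5583, Pitman-Morgan) and ran from -0.03 to 0.36.

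The genes of the B cell list did not share 1 pattern. Of 19 on the array 12 were expressed and 9 varied more in Cy5, with a median SD of 0.33. Cr2, Fcrla and Spib had mice 4 to 7 overlapping the others and no detectable excess in Cy5 (adjusted p of 0.08072 to 0.4295, Pitman-Morgan). Mice 4 to 7 lay below for Cd22, Ebf1 and Pou2af1, and above for Cd72, Blnk, Btk, Cd37, Lyn and Syk. The last 6 are known to be shared with myeloid cells to varying degrees. Ebf1 had a median Cy5 signal of 1525 and ran from -1.45 to 0.46. Which cells any gene of this list came from, below or above, was not tested. Cd72 ran from -1.97 in mouse 9 to 1.38 in mouse 4, and Blnk from -1.86 in mouse 9 to 1.00 in mouse 7. The B cell factor Pax5 and the kinase Blk were not above background on any array.

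Of 11 expressed genes of cytotoxic and natural killer cells, 6 varied more in Cy5, and mice 4 to 7 lay below for Gzma, Klrd1, Tbx21 and Ccl5. Of the regulatory T cell genes 7 of 12 were expressed, 6 varied more in Cy5, and mice 4 to 7 lay below for 3, Il2ra, Ikzf2 and Tnfrsf18. Of the group 2 innate lymphoid cell genes 7 of 12 were expressed and all 7 varied more in Cy5, and Il5 and Il13 were not above background on any array. These counts overlap, since Il1rl1, Il2ra and Klrg1 are also in the regulatory T cell list and Thy1 in the T cell list. Mice 4 to 7 lay below for Il2ra and above for Hpgds, which ran from -1.68 to 1.33. Of the interleukin 7 pathway 8 of 9 genes were expressed and 6 varied more in Cy5. Its kinase Jak3 ran from -0.29 to 0.31 and the shared receptor chain Il2rg from -0.12 to 0.27, narrow beside Il7r, while Crlf2, the chain that pairs with Il7r in the receptor for Tslp, ran from -0.56 to 0.80 with mice 4 to 7 above. Mice 4 to 7 lay below for the signal transducer Stat5a, from -0.62 to 0.22, and the survival gene Bcl2, from -0.46 to 0.43. Among 7 plasma cell genes Igj, the joining chain of secreted antibodies, ran from -1.63 in mouse 4 to 1.13 in mouse 9, and mice 4 to 7 lay above for Prdm1 and Sdc1. Of the lymph node genes 9 of 13 were expressed and 7 varied more in Cy5, with mice 4 to 7 below for Ltb, Clu and Cxcl12, and Glycam1, a gene of lymph node vessels, was not above background on any array.

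Markers of other cell types moved with the same mice. All 9 expressed macrophage markers of 10 on the array had mice 4 to 7 above the other 6, with a list mean of 0.64 to 0.91 in those mice and -0.87 to -0.09 in the others. All 9 expressed adipocyte markers had them below, with a list mean of -2.15 to -1.20 against -0.11 to 0.62. Of the 7 expressed blood cell genes, 6 lay below, as did 5 of 8 mesothelium and epithelium genes. Of 6 expressed neutrophil genes, 1 lay below and 1 above. These values move with Il7r, Cd3g and Cd79a, and their part in those results was not tested.

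**Figure D5:**
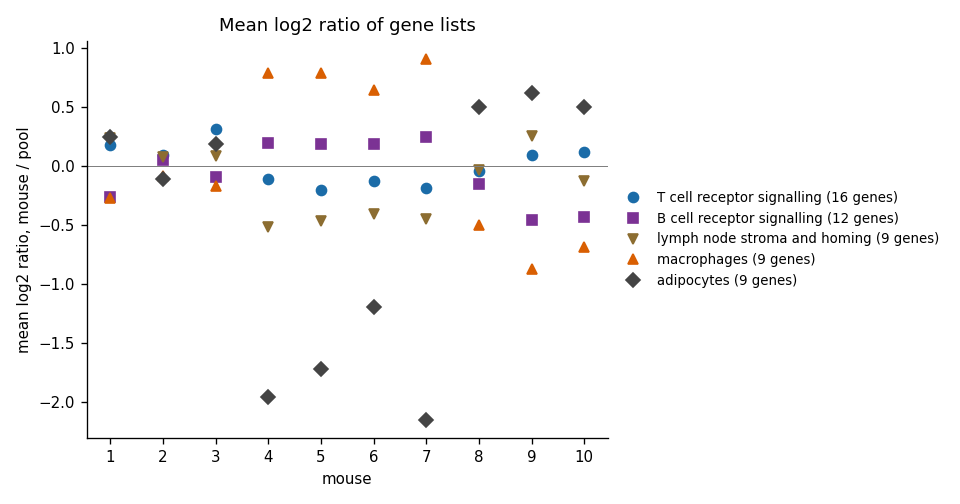
Mean log2 ratio to the pool over the expressed genes of 5 lists, 1 point per mouse and list. In mice 4 to 7 the macrophage list lies at 0.64 to 0.91 and the adipocyte list at -2.15 to -1.20. The T cell list has a narrower range, with mice 4 to 7 at -0.21 to -0.11, below the other 6 at -0.05 to 0.31. It averages 9 genes with mice 4 to 7 below, 2 with them above and 5 that overlap.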

How the data were processed

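RNA of eWAT from 10 mice of 1 group was measured on two-colour Agilent arrays (5 slides of 2). The authors deposited scanner files (Agilent Feature Extraction 10.7.3.1, per the labels) with the intensity of each spot and its background, and a log10 ratio of Cy5 over Cy3 computed by that software. A deposited table of 30733 rows held normalized values, log2 by comparison with the scanner signals (r of 0.994 to 0.999), and each column had a median of 8.52. Its centring is not given in the sources used here. Dyes were not swapped, so a ratio also holds the probe's dye bias, and none was tested against 0.

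Mean signals were corrected with normexp (offset 50) and normalized by loess within arrays, and channels by Aquantile, with limma 3.58.1 in R 4.3.3. Of 59305 non-control spots, those of 1 probe were averaged, giving 55681 probes. A probe of several spots counted as above background on an array when at least 0.5 of its spots did. Probe positions are in mm9, per the file headers. The Pitman-Morgan test compared log2 Cy5 and Cy3 variances per probe, Benjamini-Hochberg adjusted over all 25049 expressed probes, with a threshold of 0.05. Pairs used 100000 permutations over 10 mice and all permutations over fewer. Python 3.11.15 was used. The tests were tested on simulated data.

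Each gene was represented by its brightest expressed probe. The text names the 9 genes, the genes of the pairs and the 3 closest genes of each. The rule also gave, per list, the called genes with the largest SD, at most 4, and only some of these are named. Other list genes were named after their values were seen. Members and lists were chosen with earlier results of these data known. Nothing says more of the replicates than that they are separate mice. The number of arrays limits the precision.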

Additional observations from a re-analysis of the deposited data

Results flagged for a closer look

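Among 70 values tested for a mouse far from the others, 6 stood out. The test's rate of about 1 in 20 by chance holds for unselected, independent values. Many of these genes were picked for a large SD in the same data, and the neutrophil list mean holds S100a9 and Retnlg. The 6 values are therefore a description and cannot be set against that rate. The gap between the extreme mouse and its nearest neighbour is given as a share of the range over 10 mice. For Cd3e, mouse 3 was the highest, at a log2 ratio of 0.79 against -0.12 to 0.36 in the others (gap 0.470), whereas with median centring mouse 7 was the highest. For Cxcl13, mouse 9 reached 1.56 against -1.45 to -0.24 (gap 0.597). Mouse 8 was the highest for the neutrophil genes S100a9, at 2.25 against -1.96 to -0.40 (gap 0.630), and Retnlg, at 0.85 against -0.51 to -0.06 (gap 0.670). It was also the highest for the mean of the neutrophil list, at 0.57 against -0.52 to -0.02 (gap 0.537). For Krt8, a keratin of mesothelium and epithelium, mouse 2 reached 1.91 against -2.25 to -0.23 (gap 0.512).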

How the results depend on the processing

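No paired analysis was possible because the samples form 1 group and no groups share replicate numbers. The number of expressed probes with more spread in Cy5 was 4684 without normalization between arrays and 3555 without mice 4 to 7, an alternative chosen after seeing the data, and lay between 13501 and 14403 with 1 mouse left out. Of the 7 genes, 3 were called without normalization between arrays and 4 without mice 4 to 7, and 6 to 7 with 1 mouse left out. Of 7 pairs, 0 passed the threshold by Pearson r without the 2 farthest mice, 0 without mice 4 to 7, and 0 to 1 with 1 mouse left out. With all 10 mice in every pair 8 pairs could be tested, and 3 passed by Pearson r, Gata3 with Il7r among them. The r of Cd79a and Cd79b turned to -0.1097 with the scanner software's ratio, and lay between -0.2369 and 0.3564 with 1 mouse left out, below 0 without mouse 2 (-0.09084) or mouse 10. The r of Cd3g and Cd79b turned to 0.005836 without the 2 farthest mice and to 0.346 over 10 mice, and that of Cd3g and Il7r to 0.09071 without the 2 farthest. Under median centring the typical expressed probe moved from a log2 ratio of 0.003 to 0.45, and Cd3e from 0.10 to 0.59, a shift of much the same size. With the scanner software's ratio the log2 range over mice was 2.60 for Cd3g, 3.29 for Ms4a1, 1.56 for Gata3 and 1.44 for Cd79a, against 1.22, 1.34, 0.75 and 0.95. Median centring took that of Cd3e from 0.91 to 0.46. Apart from the construction of each alternative, the cause was not tested. Signals near background limit Cd8a, Foxp3 and the second Cd79a probe. The Cy5 signals of Ms4a1, Cd3g and Gata3 also reached low values, at 56.47, 69.05 and 81 in their lowest mice.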
